A study of Homo sapiens with 6 samples.

Results

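The genes described here are 32 genes of cholesterol synthesis and sterol regulation, chosen by name from the pathway and found in both deposited expression tables among 13002 genes in all. They comprise 7 enzymes from acetyl-CoA to farnesyl diphosphate, 11 enzymes from squalene to cholesterol, 5 genes of SREBP control, 4 genes of sterol binding and trafficking, and 5 genes of the LXR receptors and sterol efflux. Their transcripts were measured by RNA sequencing of total RNA from the established human line OCI-AML2, derived from acute myeloid leukaemia and grown in medium with fetal calf serum. Cells received a lentivirus with 1 of 3 hairpins, were kept for 3 days in puromycin (2.0 µg/mL) to select those infected, and gave 2 libraries per hairpin, lettered A and B. The groups were TAZ shRNA2, TAZ shRNA1 and a control hairpin, which the labels call a scramble sequence and the table columns call GFP. TAZ is here the gene of tafazzin, an enzyme of mitochondria that exchanges the fatty acids of cardiolipin, and the design asked how gene expression changes when it is lowered by either of 2 independent hairpins. All 3 groups carry a virus and went through the same selection, and parental cells without virus were not analysed here. Whether A and B are separate cultures is not stated in the labels, so the p-values rest on a spread between libraries that may be no more than technical.

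Cholesterol is built from acetyl-CoA through mevalonate, isopentenyl and farnesyl diphosphate, squalene and lanosterol. When the endoplasmic reticulum holds little cholesterol, SCAP carries the membrane-bound SREBP transcription factors to the Golgi, where they are cut and released to switch on the synthesis genes, while INSIG proteins hold SCAP back when sterol is plentiful. The LXR receptors respond to oxysterols and switch on genes that export cholesterol. Leukaemia cells make cholesterol as well as taking it up, as other dividing cells do.

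Promoter sequence was available for 28 of the 32 genes in the RefSeq table of build GRCh38.p14, in windows from 250 bases before to 50 bases after each annotated start. SREBPs bind sterol regulatory elements, usually beside a CCAAT box, the site of the factor NF-Y, so both kinds of letters were searched on both strands. The letters CCAAT were found in 20 of the 28 genes (71.4%), and in 39.7% of 27305 genes in the table. CACNCCAC, a simplified core of the sterol regulatory element that shares no letters with the CCAAT box, was found in 4 genes (14.3%; IDI1, SREBF2, INSIG1 and ABCA1), and in 7.05% of all genes in the table. A match describes the letters only and does not show that a factor binds. The 250 bases before the start are printed, 5′ to 3′ on the gene's strand, for 5 genes that hold a match, 3 called in the comparisons below (TMEM97, STARD4 and TM7SF2) and 2 central regulators (INSIG1 and SREBF2). Of the other genes of the 32 given below with all 6 values, SREBF1, SCAP, INSIG2 and NR1H2 hold neither match. No sequence was available for ACAT2, FDFT1, SQLE and ABCG1, so these were not searched. Capitals mark the matches, and a match on the opposite strand reads ATTGG or, for INSIG1, GTGGCGTG. TMEM97 (chr17:28318950-28319199, plus strand) holds 3 CCAAT boxes, STARD4 (chr5:111512536-111512785, minus strand) 2, and TM7SF2 (chr11:65111622-65111871, plus strand) 1. INSIG1 (chr7:155297628-155297877, plus strand) and SREBF2 (chr22:41832855-41833104, plus strand) each hold 1 CCAAT box and 1 sterol-element core.
TMEM97: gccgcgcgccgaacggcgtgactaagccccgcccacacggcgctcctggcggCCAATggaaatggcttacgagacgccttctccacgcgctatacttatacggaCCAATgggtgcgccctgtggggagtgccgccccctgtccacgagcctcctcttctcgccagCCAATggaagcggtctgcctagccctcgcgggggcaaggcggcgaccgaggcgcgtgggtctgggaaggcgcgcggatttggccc
STARD4: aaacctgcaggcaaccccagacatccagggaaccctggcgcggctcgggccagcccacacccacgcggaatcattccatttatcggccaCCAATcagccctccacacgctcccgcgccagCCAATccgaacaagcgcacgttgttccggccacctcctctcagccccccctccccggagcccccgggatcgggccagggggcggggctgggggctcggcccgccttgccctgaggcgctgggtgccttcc
TM7SF2: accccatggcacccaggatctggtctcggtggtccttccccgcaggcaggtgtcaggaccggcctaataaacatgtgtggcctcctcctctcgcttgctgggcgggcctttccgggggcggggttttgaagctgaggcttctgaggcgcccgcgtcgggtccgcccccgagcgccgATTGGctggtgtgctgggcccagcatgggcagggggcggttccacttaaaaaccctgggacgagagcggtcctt
INSIG1: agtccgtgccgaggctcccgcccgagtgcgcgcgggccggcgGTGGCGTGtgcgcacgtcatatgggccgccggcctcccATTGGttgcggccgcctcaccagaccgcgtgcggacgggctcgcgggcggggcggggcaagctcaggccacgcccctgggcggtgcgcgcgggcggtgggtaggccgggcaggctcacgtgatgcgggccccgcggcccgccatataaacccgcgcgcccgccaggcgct
SREBF2: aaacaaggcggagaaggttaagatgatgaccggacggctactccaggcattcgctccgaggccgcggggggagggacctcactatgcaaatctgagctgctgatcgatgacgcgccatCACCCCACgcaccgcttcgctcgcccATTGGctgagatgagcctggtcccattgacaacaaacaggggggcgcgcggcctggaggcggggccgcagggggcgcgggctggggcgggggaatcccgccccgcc

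**Figure D1:**
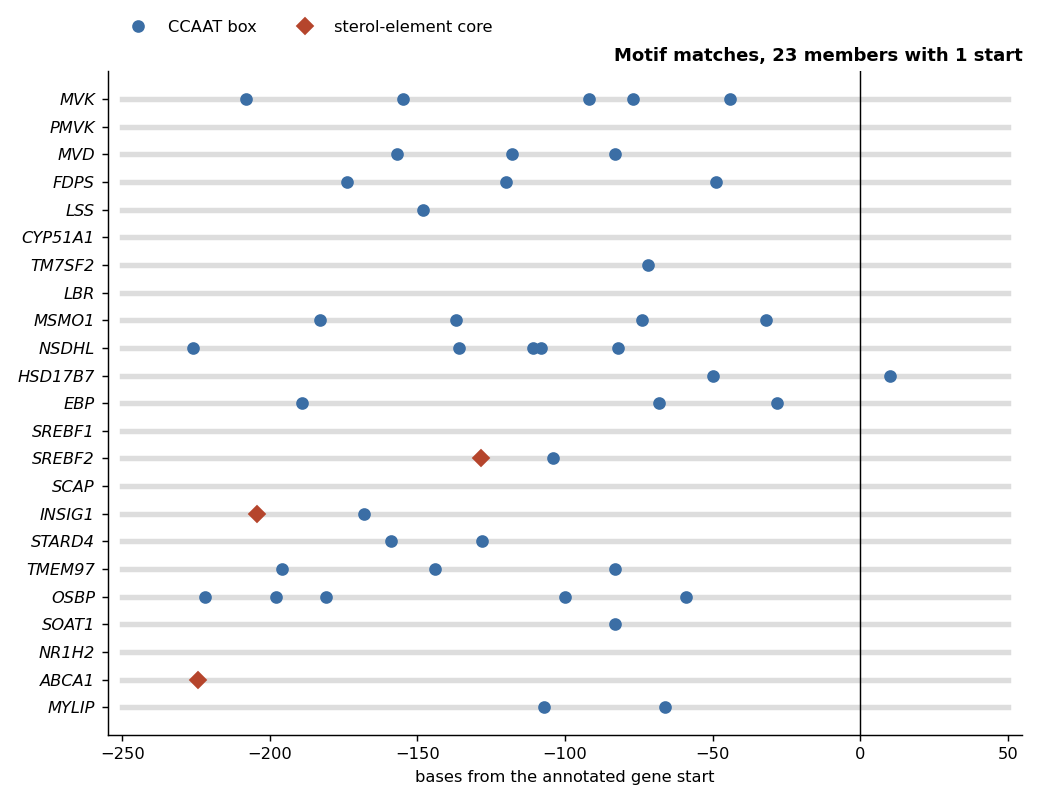
Each row is 1 of the 23 genes with a single annotated start in the RefSeq table, and the horizontal axis gives the distance in bases from that start, with circles for CCAAT boxes and diamonds for the sterol-element core CACNCCAC on either strand. SREBF2 and INSIG1 hold both kinds of match, with the core lying upstream of the CCAAT box in each.

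The 6 libraries held between 18820953 and 20981253 reads in listed genes. TAZ stood at 1.47 and 2.13 RPKM (a read count divided by the gene's length and the library's depth) with shRNA2, against 4.02 and 4.10 RPKM for shRNA1 and 11.3 and 11.9 RPKM for the control hairpin, so each hairpin library was below both control libraries. Of the myeloid markers looked up, CD33 (19.7 to 36.6 RPKM over the 6 libraries), SPI1 (117 to 145 RPKM) and CSF3R (22.8 to 38.2 RPKM) were present in each library. ITGAM, at 0.291 to 1.27 RPKM, was too low to be tested, and ANPEP was not among the listed genes. The T cell marker CD3D reached at most 0.981 RPKM. The myeloid markers also differed between groups. MPO, the granule peroxidase, stood at 1.02 and 1.49 RPKM with shRNA2, 5.16 and 4.63 RPKM with shRNA1, and 11.2 and 10.1 RPKM in control A and B. LYZ lay between 3494 and 5237 RPKM in the 4 hairpin libraries, against 786 RPKM (A) and 676 RPKM (B) in the control. CD14, a monocyte marker, stood at 13.4 and 7.97 RPKM with shRNA2, 2.44 and 1.61 RPKM with shRNA1, and 2.34 and 1.17 RPKM in control A and B. CSF1R was also higher in each hairpin library than in both controls. So was PECAM1, which was looked up as a marker of other cell types and stood at 6.82 to 22.7 RPKM over the 6 libraries. The part of these markers in the sterol values was not tested. Of the 32 sterol genes, 29 had at least 100 reads in every library, and ABCG1, with 4 to 31 reads, was too low to be tested. In these bulk samples fewer cells expressing a gene and less RNA per cell cannot be told apart.

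The most abundant transcripts of the set in control cells, per length, were FDPS (213 ± 99.8 RPKM; SD, n = 2), LBR (208 ± 10.2 RPKM) and INSIG1 (146 ± 82.1 RPKM). The large SD of FDPS and INSIG1, against that of LBR, reflects how far apart the 2 control libraries lay. Among the 5 lowest, STARD4 averaged 7.12 ± 2.43 RPKM, NR1H3 2.32 ± 0.282 RPKM, TM7SF2 1.87 ± 0.275 RPKM, ABCA1 1.57 ± 0.923 RPKM and ABCG1 0.344 ± 0.207 RPKM (SD, n = 2 each). Neighbours in this order, such as FDPS and LBR, often differed by less than their SD.

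**Figure D2:**
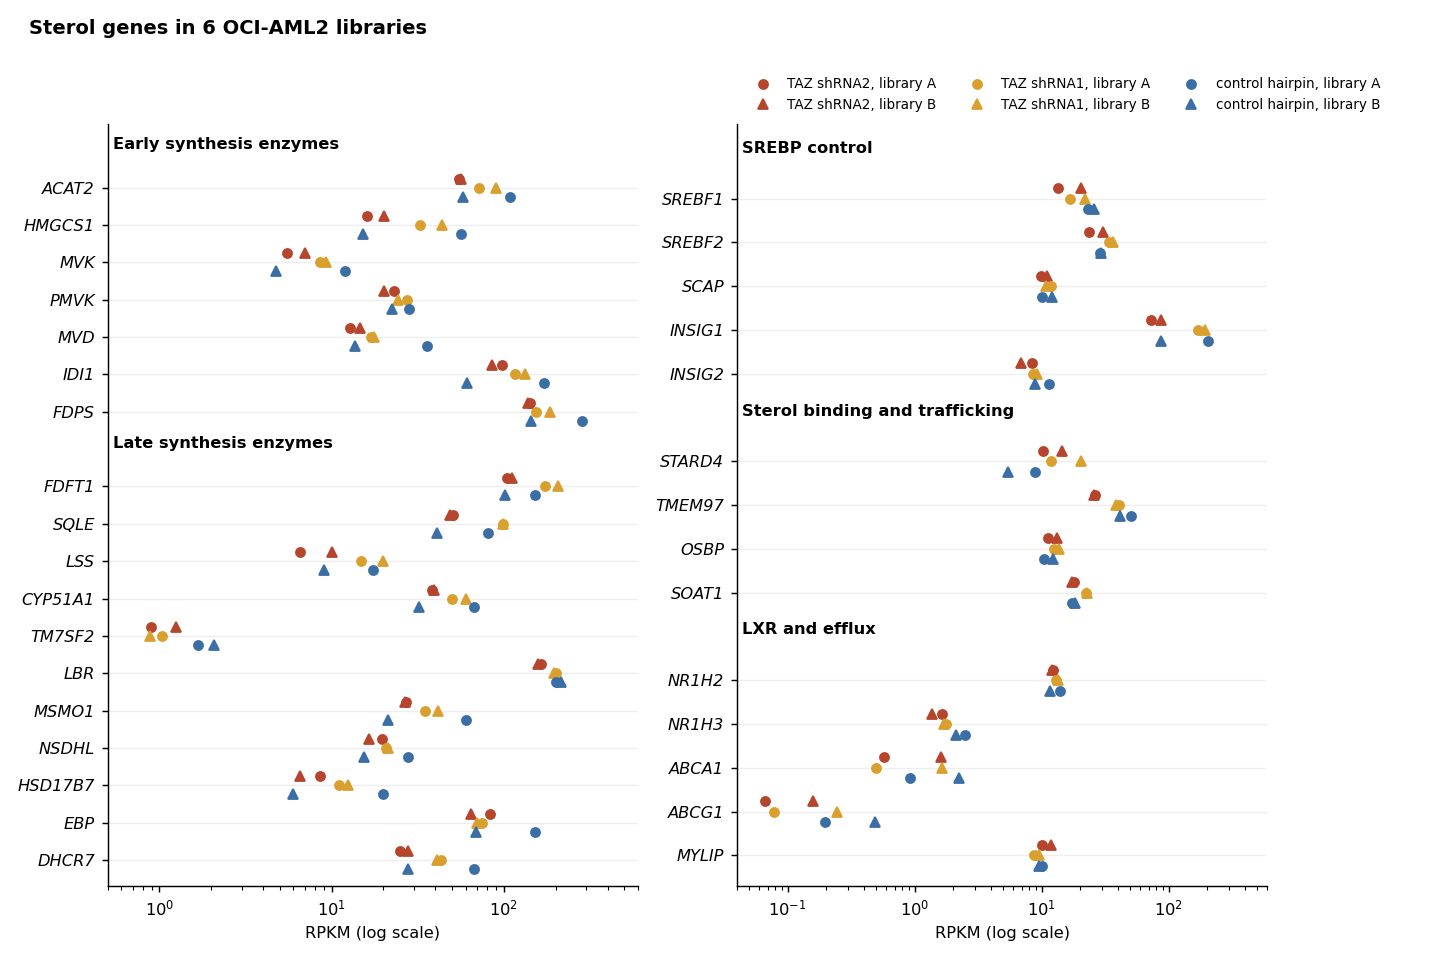
Each row is 1 of the 32 genes, grouped by role, and each point the RPKM of 1 library on a log scale, with circles for library A and triangles for library B in the order TAZ shRNA2, TAZ shRNA1 and control. For most synthesis enzymes control A is the highest point and control B lies among or below the shRNA2 points, whereas LBR, SREBF2 and SCAP show close control libraries.

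The 2 control libraries disagreed on the synthesis genes, and this bears on each comparison with the control that follows. Control A had at least 1.5 times the RPKM of control B for 14 of the 18 synthesis enzymes (77.8%), which holds for 5.56% of 10660 genes that averaged 1 RPKM or more. At a limit of 2-fold the count was 9 of 18 (50%), against 1.6% of all genes. The median ratio of control A over control B was 2.04 for the enzymes and 0.99 for all genes. In shRNA2 the ratio of library A over B reached 1.5 for 0 of 18 enzymes and library B exceeded A by that factor for 1, and in shRNA1 neither happened for any of the 18.

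HMGCS1, which makes the precursor of mevalonate, showed the widest gap, with 56.3 RPKM in control A and 15.3 RPKM in control B, a ratio of 3.68 (95% counting interval 3.49 to 3.89, which covers counting error only). The ratio was 3.36 for HSD17B7, a reductase of the late pathway, 2.87 for MSMO1, the sterol C4 methyl oxidase, 2.82 for IDI1, the isopentenyl diphosphate isomerase, and 2.63 for MVD, the mevalonate diphosphate decarboxylase. These 5 enzymes were picked after their values were seen. The 4 enzymes short of a 1.5-fold gap were FDFT1 (1.49), PMVK (1.25), LBR (0.93) and TM7SF2 (0.81). INSIG1, itself a target of SREBP, had a ratio of 2.33, while the regulators SREBF2, SREBF1 and SCAP had ratios of 0.98, 0.90 and 0.83. Nothing in the labels sets control A and control B apart, and the cause of the gap was not tested.

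Seen by library, the 18 enzymes lay on average 0.32 (A) and 0.29 (B) below their own 6-library means on the log2 scale with shRNA2, and 0.12 (A) and 0.25 (B) above them with shRNA1. Control A lay 0.61 above and control B 0.37 below. The 2 control libraries were thus the highest and the lowest of the 6 by this average, and each hairpin's libraries lay between them. Both shRNA2 libraries lay between the 2 control libraries for 9 of the 18 enzymes and both shRNA1 libraries for 13, against 8.29% and 11.9% of all genes.

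**Figure D3:**
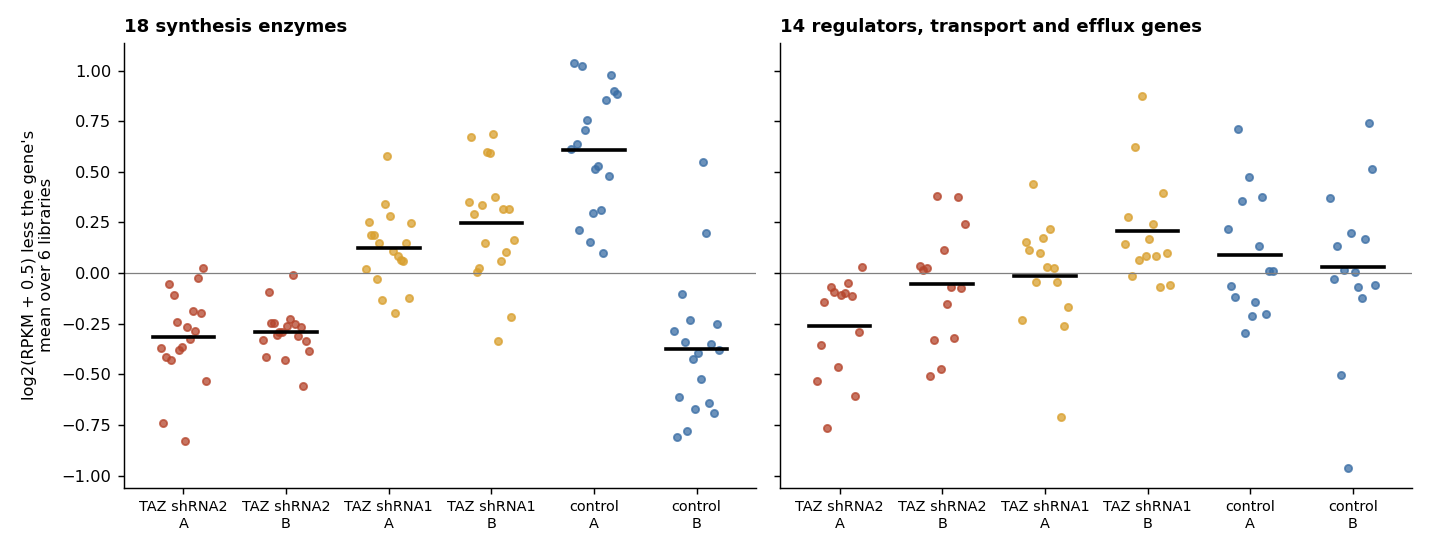
Each point is 1 gene in 1 library, plotted as log2(RPKM + 0.5) less that gene's mean over the 6 libraries, with a bar at the mean of the genes, for the 18 synthesis enzymes on the left and the other 14 genes on the right. For the enzymes the bars run from 0.61 in control A to -0.37 in control B, with the shRNA2 bars at -0.32 and -0.29 and the shRNA1 bars at 0.12 and 0.25 between them.

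With shRNA2 against the control, the synthesis and SREBP genes had mostly lower values, and 1 sterol gene passed the test. TMEM97, a sterol-binding membrane protein of the endoplasmic reticulum that is also known as the sigma-2 receptor, fell. Of 31 sterol genes tested, 0 rose, 1 fell and 30 did not pass (limma on log2(RPKM + 0.5), Benjamini-Hochberg adjustment over all genes, adjusted p under 0.05), while 8.12% of 10659 genes rose and 7.61% fell, so the share called was below the background of 15.7%. At an unadjusted p under 0.05, 1 sterol gene was higher and 4 were lower. The share of all genes at that unadjusted limit was not counted here or below, so such counts have no background. A run of limma-voom on whole reads recovered from the RPKM called 0 rises and 1 fall (17.6% of all genes in either direction). Values were lower for 28 of 31 genes, with a median log2 fold change of -0.38 (all genes -0.0045). Both shRNA2 libraries were below both control libraries for 10 of the 31 and above for 2, against 31.1% and 31.0% of all genes (62.1% in either direction).

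With shRNA1 against the control, STARD4, a carrier that moves cholesterol between membranes, rose, and TM7SF2, a sterol C14 reductase, fell. Of 31 genes tested, 1 rose, 1 fell and 29 did not pass, while 9.99% of 10613 genes rose and 8.58% fell (18.6% in either direction). The median log2 fold change was 0.04, with 19 values higher and 12 lower. Both shRNA1 libraries were above both control libraries for 6 genes and below for 5, against 33.5% and 32.5% of all genes (66.0% in either direction). At an unadjusted p under 0.05, 4 sterol genes were higher and 1 was lower.

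The counts in both comparisons turned on which control library was used. Against control B alone, 14 genes rose and 3 fell with shRNA1 (all genes 16.2% and 14.9%), and 1 rose and 1 fell with shRNA2 (7.98% and 7.02%). Against control A alone, 2 rose and 13 fell with shRNA1 (20.7% each over all genes, 41.4% in either direction), and 0 rose and 16 fell with shRNA2 (9.71% and 9.11%). For shRNA2 the median log2 fold change over the sterol genes was -0.03 against control B and -0.63 against control A, and for shRNA1 it was 0.30 against control B and -0.29 against control A. In these fits the lone control library is assumed to vary like the other group. The authors' deposited table, which calls 38.8% of its genes for shRNA2 and 35.9% for shRNA1, calls 15 sterol genes lower and 1 higher with shRNA2, and 4 lower and 4 higher with shRNA1. The 2 comparisons share their control libraries, so their values are not independent of each other.

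**Figure D4:**
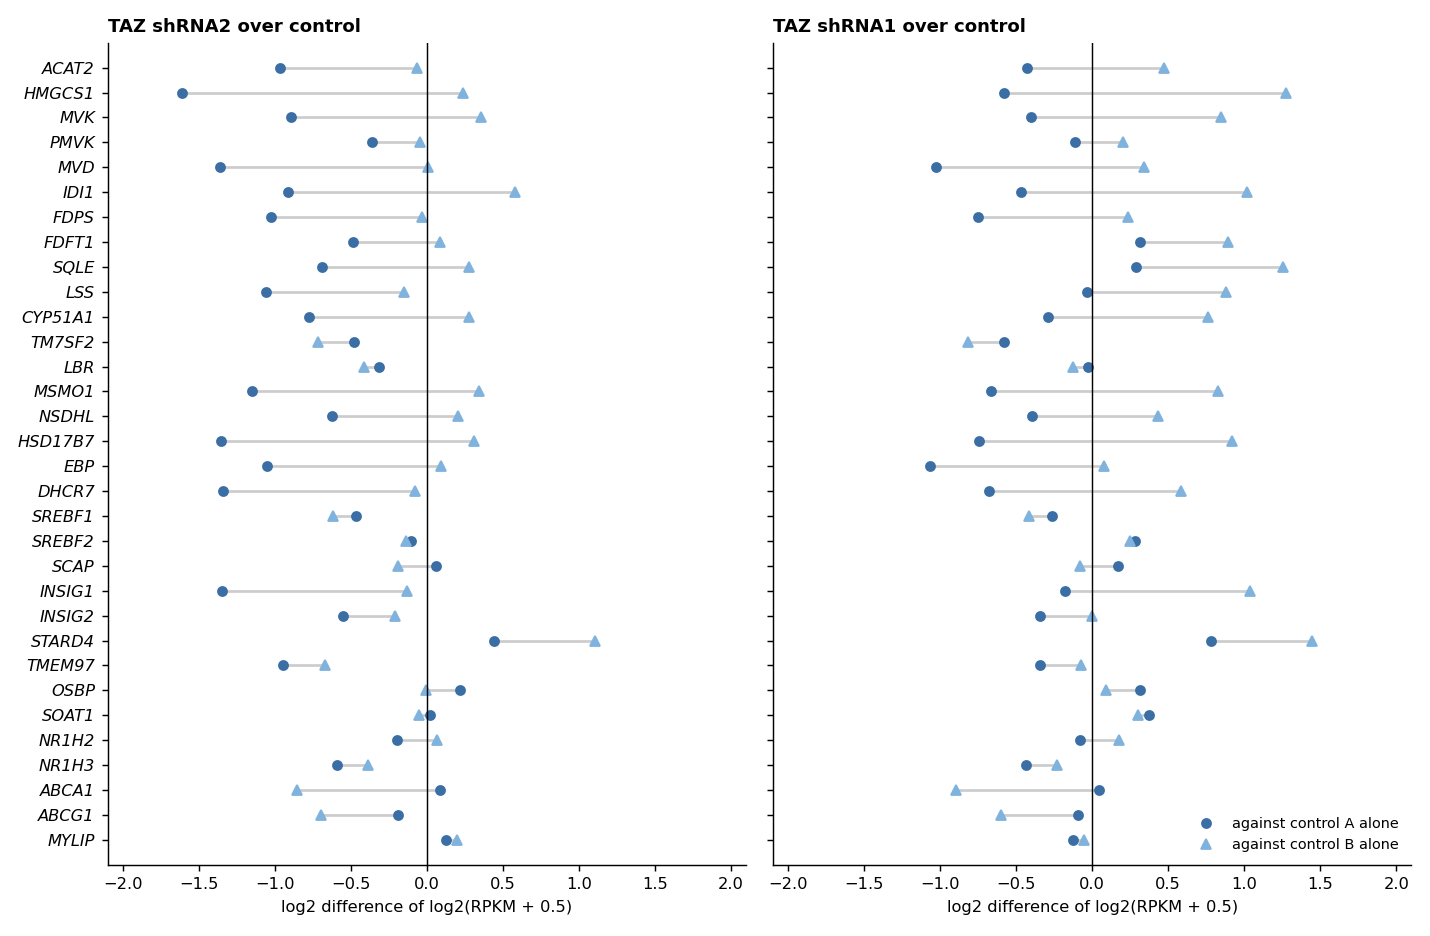
Each row is 1 gene, and each point the difference in log2(RPKM + 0.5) between the mean of the 2 hairpin libraries and 1 control library alone, with circles for control A and triangles for control B, for shRNA2 on the left and shRNA1 on the right. For most synthesis enzymes the circle lies well to the left of the triangle, with the shRNA1 pair on either side of 0, while for TMEM97 with shRNA2 both points lie below -0.6 and for STARD4 with shRNA1 both lie above 0.7.

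The hairpins were also set against each other, since the gap between the control libraries does not enter the difference itself. Here shRNA2 cells had lower levels than shRNA1 cells along most of the pathway. The enzyme averages by library were -0.32 and -0.29 with shRNA2 and 0.12 and 0.25 with shRNA1. That gap was smaller than the 1 between control A (0.61) and control B (-0.37), which carry the same hairpin. The enzymes also moved together between the 2 control libraries, so the gene counts below are not independent of each other. FDFT1, the squalene synthase, SQLE, the squalene epoxidase, and TMEM97 fell. In 1 fit of the 6 libraries 31 sterol genes were tested, of which 0 rose, 3 fell and 28 did not pass, while 4.78% of 10660 genes rose and 6.10% fell (10.9% in either direction). At an unadjusted p under 0.05, 0 were higher and 7 lower, and limma-voom called 0 rises and 4 falls (11.7% of all genes in either direction). Values were lower with shRNA2 for 27 of 31 genes, with a median log2 fold change of -0.34 (all genes -0.00864). Both shRNA2 libraries lay below both shRNA1 libraries for 23 of the 31 genes, against 31.2% of all genes, and above for 1, MYLIP, a ubiquitin ligase induced by LXR, against 27.4% (58.6% of all genes in either direction).

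The spread in that fit includes the 2 discordant control libraries. Leaving them out removes the group whose libraries differed most on the enzymes. The fits that follow may therefore understate the spread of these genes between libraries of 1 hairpin. In a fit of the 4 hairpin libraries alone, added after the control gap was seen, 0 sterol genes rose and 11 fell, while 6.74% of all genes rose and 8.36% fell. The genes that fell in it were ACAT2, HMGCS1, FDFT1, SQLE, LSS, CYP51A1, MSMO1, HSD17B7, DHCR7, INSIG1 and TMEM97, of which 9 are synthesis enzymes. In the fit without control A, 0 rose and 11 fell (6.73% and 8.46% of all genes), and in the fit without control B, 0 rose and 12 fell (6.73% and 8.49%). Without any 1 of the 4 hairpin libraries the calls of FDFT1, SQLE and TMEM97 were lost, with adjusted p between 0.0868 and 0.257 and log2 fold changes of the same sign.

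**Figure D5:**
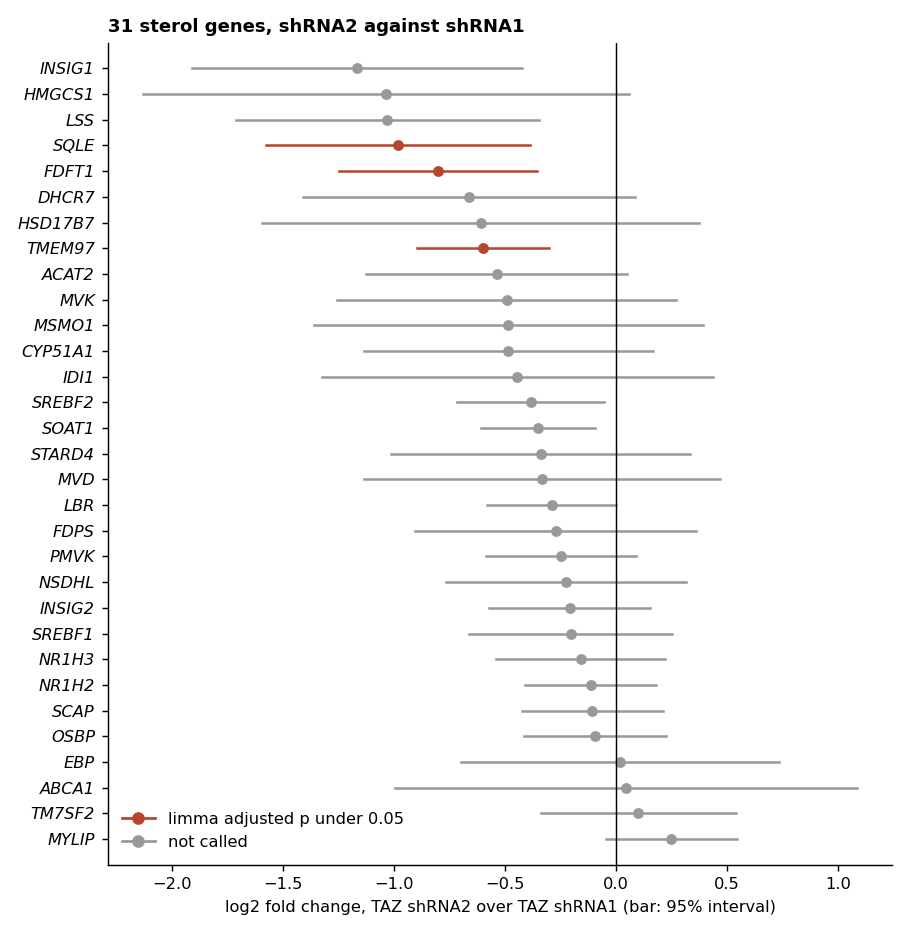
Each row is 1 of the 31 genes tested, and each point its log2 fold change of TAZ shRNA2 over TAZ shRNA1 in the fit of 6 libraries, with the 95% interval as a bar and the 3 genes with an adjusted p under 0.05 in red. The points lie left of 0 for 27 of 31 genes, and the intervals of LSS, INSIG1, SREBF2 and SOAT1 exclude 0 without an adjusted p under 0.05.

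Among the early enzymes, all 7 had lower values with shRNA2 than with shRNA1, in each case in both libraries. The same held for 31.2% of all genes (58.6% in either direction). In the 3 main comparisons with all libraries 0 of the 7 passed the test. Their median log2 fold change was -0.52 for shRNA2 against control, 0.04 for shRNA1 against control and -0.45 for shRNA2 against shRNA1. ACAT2, the cytosolic thiolase that joins 2 acetyl-CoA, stood at 54.6 and 56.2 RPKM with shRNA2, 71.9 and 90.6 RPKM with shRNA1, and 109 and 58.0 RPKM in control A and B. The shRNA2 libraries were the lowest pair, and the shRNA1 libraries fell between the controls. Its log2 fold change was -0.52 (SE 0.27, adjusted p = 0.225) for shRNA2 against control, 0.02 (SE 0.27, adjusted p = 0.957) for shRNA1 against control and -0.54 (SE 0.26, adjusted p = 0.228) between the hairpins. Against control A alone it was -0.43 with shRNA1 (adjusted p = 0.018) and against control B alone 0.47 (adjusted p = 0.00843).

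FDPS, which makes farnesyl diphosphate at the branch to isoprenoids, stood at 142 and 137 RPKM with shRNA2, 153 and 186 RPKM with shRNA1, and 284 and 143 RPKM in control A and B. Control A stood far above the other 5 libraries, of which control B was level with shRNA2. The log2 fold changes of FDPS were -0.53 for shRNA2 and -0.25 for shRNA1 against control (adjusted p = 0.256 and 0.561). The other 5 early enzymes, HMGCS1, MVK, PMVK, MVD and IDI1, had log2 fold changes between -0.69 and -0.17 for shRNA2 against control, and between -0.34 and 0.35 for shRNA1.

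Among the 11 late enzymes, 11 of 11 had lower values with shRNA2 than in the control, 0 passed, and the median log2 fold change was -0.40. With shRNA1, 7 were higher and 4 lower than in the control, 1 fell, and the median was 0.08. FDFT1, which commits farnesyl diphosphate to sterols, stood at 104 and 111 RPKM with shRNA2, 172 and 205 RPKM with shRNA1, and 151 and 101 RPKM in control A and B. The shRNA1 libraries were the highest of the 6, and the shRNA2 libraries lay between the controls, close to control B. Between the hairpins FDFT1 fell by 0.80 (log2; SE 0.20, adjusted p = 0.0357), and it had log2 fold changes of -0.20 (adjusted p = 0.54) with shRNA2 and 0.60 (adjusted p = 0.0764) with shRNA1 against control.

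SQLE, an oxygen-using and rate-limiting step of the late pathway, stood at 51.0 and 48.6 RPKM with shRNA2, 98.2 and 99.4 RPKM with shRNA1, and 80.7 and 41.1 RPKM in control A and B. As with FDFT1, the shRNA1 libraries were the highest and the shRNA2 libraries lay between the controls. SQLE fell between the hairpins by 0.98 (SE 0.26, adjusted p = 0.0473), a call lost with robust empirical Bayes (0.0745) and with no filter on low values (0.0569). Its log2 fold changes against control were -0.21 with shRNA2 (adjusted p = 0.641) and 0.77 with shRNA1 (adjusted p = 0.0895).

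DHCR7, which makes the last reduction to cholesterol, stood at 25.0 and 27.7 RPKM with shRNA2, 43.3 and 40.8 RPKM with shRNA1, and 67.4 and 27.8 RPKM in control A and B. The shRNA2 libraries were just below control B, and the shRNA1 libraries lay between the controls. Its log2 fold change with shRNA2 was -0.71 (SE 0.35, adjusted p = 0.204). With shRNA1 it was -0.04 (SE 0.35, adjusted p = 0.94), 0.59 against control B alone and -0.67 against control A alone (adjusted p = 9.37e-04 and 3.43e-04), so its direction depended on the control library.

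TM7SF2 behaved otherwise. It stood at 0.90 and 1.24 RPKM with shRNA2, 1.03 and 0.89 RPKM with shRNA1, and 1.68 and 2.06 RPKM in control A and B, levels that rest on 28 to 67 reads. Each of the 4 hairpin libraries was below both controls. TM7SF2 fell by 0.70 with shRNA1 (SE 0.18, adjusted p = 0.0348) and had a log2 fold change of -0.60 with shRNA2 (SE 0.21, adjusted p = 0.0998). The shRNA1 call was lost without shRNA1 A (adjusted p = 0.117), without shRNA1 B (0.256), with limma-voom (0.055) and with the gene length trend removed (0.0861). LBR, the lamin B receptor, which has the same reductase activity as TM7SF2, had log2 fold changes of -0.37 with shRNA2 (adjusted p = 0.162) and -0.07 with shRNA1 (0.687). Between the hairpins TM7SF2 and EBP, the sterol isomerase, were the 2 late enzymes with higher values with shRNA2, by 0.10 and 0.02.

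Of the 5 genes of SREBP control, 0 passed in any of the 3 main comparisons with all libraries. Runs with a replicate block on the library letter, given at the end, called all of them but SCAP in some comparison. Of all genes that block called 35.6% for shRNA1, 39.1% for shRNA2 and 22.5% between the hairpins. Values were lower for 5 of 5 with shRNA2 than in the control and than with shRNA1. INSIG1, the sterol-responsive retention protein for SCAP, had the largest log2 difference between the hairpins of the 31 genes. It stood at 73.0 and 87.4 RPKM with shRNA2, 169 and 192 RPKM with shRNA1, and 204 and 87.6 RPKM in control A and B. The shRNA1 libraries were near control A and the shRNA2 libraries at or just below control B. The difference between the hairpins was -1.17 (SE 0.33, 95% interval -1.91 to -0.42, adjusted p = 0.0557), and its adjusted p was 0.0432 with limma-voom, 0.04 with quantile normalization and 0.00204 in the hairpin libraries alone. INSIG1 was called in only 6 of the 16 alternative settings, these included, with log2 fold changes between -1.30 and -1.04. Against control the log2 fold changes were -0.74 (adjusted p = 0.186) with shRNA2 and 0.43 (adjusted p = 0.393) with shRNA1. INSIG2, its less sterol-responsive relative, stood at 8.36 and 6.90 RPKM with shRNA2, 8.52 and 9.23 RPKM with shRNA1, and 11.4 and 8.88 RPKM in control A and B. Both shRNA2 libraries were below both controls, by a log2 fold change of -0.38 that did not pass (SE 0.18, adjusted p = 0.177), and with shRNA1 the groups overlapped (-0.17, adjusted p = 0.448).

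SREBF2, which encodes the SREBP chiefly tied to cholesterol synthesis, stood at 23.6 and 30.6 RPKM with shRNA2, 33.7 and 36.8 RPKM with shRNA1, and 28.9 and 29.6 RPKM in control A and B. The control libraries were close, the shRNA1 libraries were above them and the shRNA2 libraries on either side. Its log2 fold changes were -0.12 (SE 0.16, adjusted p = 0.639) with shRNA2, 0.26 (SE 0.11, adjusted p = 0.144) with shRNA1 and -0.39 (SE 0.15, adjusted p = 0.134) between the hairpins. SREBF1, the SREBP gene tied more to fatty acid synthesis, stood at 13.6 and 20.3 RPKM with shRNA2, 16.8 and 21.9 RPKM with shRNA1, and 23.1 and 25.8 RPKM in control A and B. Each hairpin library was below both controls. Its log2 fold change was -0.54 (SE 0.20, adjusted p = 0.106) with shRNA2 and -0.34 (SE 0.15, adjusted p = 0.159) with shRNA1. With shRNA2 B left out the first was -0.82. With the gene length trend removed SREBF1 was called for shRNA2 (adjusted p = 0.0318) and shRNA1 (0.0461). A replicate block on the library letter also called it for shRNA2 (0.00841) and shRNA1 (0.0361). For each hairpin SREBF1 was called in only 3 of the 13 alternative settings. SCAP, the sterol sensor that escorts SREBP, stood at 9.84 and 11.1 RPKM with shRNA2, 11.8 and 10.8 RPKM with shRNA1, and 9.996 and 11.99 RPKM in control A and B. Its groups overlapped in each comparison, with log2 fold changes of -0.06, 0.04 and -0.11 for shRNA2 against control, shRNA1 against control and shRNA2 against shRNA1 (adjusted p = 0.804, 0.841 and 0.675), and 95% intervals within -0.43 and 0.37.

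Of the sterol binding and trafficking genes, TMEM97 and STARD4 were called and OSBP and SOAT1 were not. TMEM97 stood at 26.1 and 26.0 RPKM with shRNA2, 41.0 and 38.5 RPKM with shRNA1, and 50.6 and 41.7 RPKM in control A and B. The shRNA2 libraries were the lowest pair by a wide margin, and those of shRNA1 lay just below control B. TMEM97 fell with shRNA2 by 0.81 against control (SE 0.15, adjusted p = 0.0155) and by 0.60 against shRNA1 (SE 0.13, adjusted p = 0.0238). For shRNA1 against control the log2 fold change was -0.21 (SE 0.13, adjusted p = 0.293). TMEM97 was the sterol gene called with shRNA2 in each alternative run, either control library left out included.

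STARD4 stood at 10.2 and 14.5 RPKM with shRNA2, 11.8 and 20.5 RPKM with shRNA1, and 8.84 and 5.40 RPKM in control A and B. Each hairpin library was above both controls, though in each group the libraries lay far apart. STARD4 rose by 1.11 with shRNA1 (SE 0.29, adjusted p = 0.0397) and had a log2 fold change of 0.77 with shRNA2 (SE 0.25, adjusted p = 0.0751), called without shRNA2 A (0.0279) and without control A (0.00136). The shRNA1 call was lost without shRNA1 B (log2 fold change 0.73, adjusted p = 0.17), with robust empirical Bayes (0.108) and with no filter (0.052). SOAT1, which esterifies cholesterol for storage, had log2 fold changes of -0.02 with shRNA2 and 0.34 with shRNA1 against control (adjusted p = 0.945 and 0.08), and -0.35 between the hairpins (adjusted p = 0.0852). OSBP, which exchanges cholesterol for a phosphoinositide between endoplasmic reticulum and Golgi, had log2 fold changes of 0.11 with shRNA2 and 0.20 with shRNA1 (adjusted p = 0.673 and 0.317).

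Of the LXR and efflux genes, 0 of the 4 tested passed in any of the 3 main comparisons with all libraries. NR1H2, the widely expressed LXR-beta, stood at 12.3 and 12.1 RPKM with shRNA2, 12.99 and 13.6 RPKM with shRNA1, and 14.04 and 11.7 RPKM in control A and B. The libraries of each hairpin lay between the controls, and the log2 fold changes were -0.06 (SE 0.15) with shRNA2 and 0.05 (SE 0.14) with shRNA1 (adjusted p = 0.791 and 0.81). NR1H3, the LXR-alpha of macrophages and liver, stood at 1.65 and 1.37 RPKM with shRNA2, 1.76 and 1.72 RPKM with shRNA1, and 2.52 and 2.12 RPKM in control A and B. Each hairpin library was below both controls, by log2 fold changes of -0.49 (SE 0.19, adjusted p = 0.126) with shRNA2 and -0.33 (SE 0.16, adjusted p = 0.183) with shRNA1. MYLIP, which marks lipoprotein receptors for degradation, had log2 fold changes of 0.16 with shRNA2, -0.09 with shRNA1 and 0.25 between the hairpins (adjusted p = 0.485, 0.643 and 0.267). ABCA1, the exporter of cholesterol to apolipoprotein A-I, had log2 fold changes of -0.38 and -0.43 with shRNA2 and shRNA1 (adjusted p = 0.536 and 0.486), with SEs of 0.40 and 0.41.

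Other genes of the pathway were counted in lists beside these, to be read against the 15.7% of all genes called with shRNA2 and the 18.6% called with shRNA1. Of 5 further synthesis and uptake genes tested, 0 rose and 0 fell with shRNA2 (at an unadjusted p under 0.05 likewise 0), and 1 rose with shRNA1. This was SC5D, the sterol C5 desaturase, at 3.48 and 3.90 RPKM with shRNA2, 6.14 and 7.28 RPKM with shRNA1, and 4.44 and 2.82 RPKM in control A and B. As for SQLE, the shRNA1 libraries were the highest of the 6. SC5D rose by 0.83 with shRNA1 (adjusted p = 0.0357), lost with removal of the gene length trend (0.111) or of either shRNA1 library (0.0526 without A, 0.196 without B), and fell by 0.78 between the hairpins (adjusted p = 0.0424), lost with no filter (0.0556), on removal of the length trend (0.0621) and without any 1 hairpin library (0.112 to 0.278). ACLY, which supplies cytosolic acetyl-CoA, fell by 0.55 between the hairpins (adjusted p = 0.0374), lost with quantile normalization (0.0682) and without any 1 hairpin library (0.0514 to 0.292). Of 14 tested genes of the isoprenoid branch, which draws on the same mevalonate, 1 fell with shRNA2 and 1 rose with shRNA1, shares below those of all genes. RABGGTB, a subunit of the enzyme that adds geranylgeranyl groups to Rab proteins, fell by 0.84 with shRNA2 (SE 0.14, adjusted p = 0.0108). ICMT, which methylates prenylated proteins, rose by 0.58 with shRNA1 (SE 0.13, adjusted p = 0.027), but not when shRNA1 A or shRNA1 B was left out (0.203 and 0.132).

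Of 14 genes of SREBP processing and sterol-regulated degradation, 1 rose and 1 fell with shRNA2, and 2 rose and 0 fell with shRNA1. In either direction these counts were near the shares of all genes (15.7% and 18.6%). Of all genes, 8.12% rose with shRNA2 and 9.99% with shRNA1. ERLIN2 and ERLIN1 encode scaffolds of the endoplasmic reticulum that bind cholesterol. ERLIN2 stood at 43.9 and 47.7 RPKM with shRNA2, 40.4 and 42.9 RPKM with shRNA1, and 23.7 and 32.4 RPKM in control A and B. Each hairpin library was above both controls. ERLIN2 rose by 0.71 with shRNA2 (adjusted p = 0.0365) and by 0.58 with shRNA1 (adjusted p = 0.0465). The shRNA2 call was lost without control A (0.127) and without shRNA2 B (0.0947), and the shRNA1 call without shRNA1 A (0.109), without shRNA1 B (0.223), with no filter (0.0545) and on removal of the gene length trend (0.0577). ERLIN1 rose by 0.59 with shRNA1 (adjusted p = 0.0158; 0.12 and 0.125 without either shRNA1 library). RNF139, a sterol-sensing ubiquitin ligase, fell by 0.68 with shRNA2 (adjusted p = 0.0298), a call lost without shRNA2 B (0.145).

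The list of intracellular sterol transport and cholesterol ester genes held 3 rises and 1 fall of 19 with shRNA2 and 4 rises and 0 falls of 19 with shRNA1. In either direction these counts were near the shares of all genes (15.7% and 18.6%). Of all genes, 8.12% rose with shRNA2 and 9.99% with shRNA1. NCEH1, a cholesterol ester hydrolase of macrophages, stood at 13.6 and 12.5 RPKM with shRNA2, 10.0 and 11.5 RPKM with shRNA1, and 4.65 and 4.82 RPKM in control A and B. LIPA, the lysosomal acid lipase that frees cholesterol from lipoprotein esters, stood at 48.3 and 51.6 RPKM with shRNA2, 42.6 and 53.6 RPKM with shRNA1, and 27.2 and 26.0 RPKM in control A and B. For both genes each hairpin library was above both controls and the control libraries were close. NCEH1 rose by 1.37 with shRNA2 and 1.1 with shRNA1 (adjusted p = 0.00268 and 0.00463). LIPA rose by 0.90 with shRNA2 and 0.83 with shRNA1 (adjusted p = 0.00829 and 0.0105), the second lost without shRNA1 B (0.0803). NPC2, which takes cholesterol out of the lysosome with NPC1, rose by 1.26 with shRNA2 (SE 0.20, adjusted p = 0.00914). OSBPL5, a lipid exchanger at membrane contacts, rose by 0.92 with shRNA1 (SE 0.13, adjusted p = 0.00691), lost without shRNA1 B (0.0563), and fell by 0.95 between the hairpins (adjusted p = 0.00717). SCARB2, a lysosomal membrane protein picked after its values were seen, rose by 0.87 with shRNA1 (adjusted p = 0.00989) and fell by 1.24 between the hairpins (adjusted p = 0.00163), the smallest p of this list in that comparison.

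Of the LXR target genes listed, 2 of 9 rose and 3 of 9 fell with shRNA2, and 2 of 7 fell with shRNA1, while 8.12% of all genes rose and 7.61% fell with shRNA2 and 8.58% fell with shRNA1. LPL, the lipoprotein lipase, stood at 14.9 and 16.1 RPKM with shRNA2, 34.2 and 34.2 RPKM with shRNA1, and 34.4 and 39.7 RPKM in control A and B. Its shRNA2 libraries lay far below the other 4, and LPL fell by 1.23 with shRNA2 (SE 0.15, adjusted p = 0.00405). PLTP, the phospholipid transfer protein, fell by 1.14 with shRNA2 and 0.43 with shRNA1 (adjusted p = 0.00548 and 0.0469), the second lost without either shRNA1 library and with no filter (0.184, 0.361 and 0.0527). MERTK, a receptor for the uptake of dying cells, rose by 1.37 with shRNA2 (adjusted p = 0.0154), and passed the filter through its level with shRNA2. It was called in each of the 10 alternative settings that tested it, no filter included. The filter at 5 RPKM and the runs without either shRNA2 library left it untested. APOC1 fell by 0.91 with shRNA1 (adjusted p = 0.0133), a call lost with limma-voom (0.0727), without shRNA1 A (0.0741), without shRNA1 B (0.0576) and on removal of the gene length trend (0.0611). Members of the list thus moved in both directions with shRNA2.

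Of 6 tested genes of sterol uptake and high density lipoprotein receptors, 2 rose and 1 fell with shRNA2, and 2 rose and 0 fell with shRNA1 (limma; at an unadjusted p under 0.05, 3 were higher and 0 lower with shRNA1), against 15.7% and 18.6% of all genes in either direction. CD36, a scavenger receptor for lipids, stood at 6.88 and 6.06 RPKM with shRNA2, 3.11 and 2.80 RPKM with shRNA1, and 0.792 and 1.04 RPKM in control A and B. CD36 rose by 2.30 with shRNA2 and 1.29 with shRNA1 (adjusted p = 0.00245 and 0.0055). SORL1, a sorting receptor of the same receptor family as the lipoprotein receptors, rose by 1.19 with shRNA2 and 1.94 with shRNA1 (adjusted p = 0.0119 and 0.00157). CD36 and SORL1 averaged under 1 RPKM in the control and passed the filter through the hairpin libraries. CD36, MERTK and LIPA are also genes of monocytes and macrophages, and CD14 and LYZ, given above, moved in the same direction with shRNA2. CD33, SPI1, CSF1R, CSF3R and ITGAM were also higher in both shRNA2 libraries than in both controls, as were 31.0% of all genes. None of these 5 was called with shRNA2. Others went the other way. The myeloid marker MPO fell with shRNA2 (log2 fold change -2.68), as did LPL and PLTP of the lists. NR1H3, the LXR-alpha of macrophages and liver, had a log2 fold change of -0.49 that did not pass. The part of the myeloid markers in these values was not tested. SCARB1, the receptor for high density lipoprotein, fell by 0.77 with shRNA2 (adjusted p = 0.0224), lost without shRNA2 A (0.0756). Of 4 tested genes of oxysterols and bile acid synthesis, GPR183, a receptor for oxysterols, rose by 2.38 with shRNA2 (adjusted p = 0.00473), and SLC27A5, a bile acid and fatty acid ligase, fell by 1.03 (adjusted p = 0.0479). The SLC27A5 call was lost without shRNA2 B (0.146), without control A (0.0805), with quantile normalization (0.0569), with robust empirical Bayes (0.0569) and with no filter (0.067), and 0 of the 4 were called with shRNA1, where 2 were higher and 1 lower at an unadjusted p under 0.05 (limma).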

How the data were processed

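RNA sequencing gave 6 libraries, 2 for each of 3 hairpins, with 18820953 to 20981253 reads in listed genes. Per the submitters' processing notes, build hg19, TopHat2 2.0.11, Trim Galore 0.4.0, edgeR 3.8.6, DESeq 1.18.0 and HTSeq 0.6.1p2 were used. The authors deposited RPKM values in 1 table per hairpin, with 13004 rows each and the same control values in both. The deposited p-values, likelihood-ratio score, log2 fold changes and average log2 CPM of the authors stand beside them. Neither the authors' filter nor the strand setting of their counting is given in the sources used here, so reads of overlapping genes on opposite strands, such as ACAT2 and TCP1, and of pseudogenes of FDPS, HSD17B7 and CYP51A1 cannot be told apart. After 2 repeats were dropped, 13002 genes were kept, and 0 sample columns stayed unmatched. Whole reads were recovered from the RPKM steps for 12925 genes (99.41%, tolerance 0.05 reads).

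Values were taken as log2(RPKM + 0.5), which understates the change of low genes, for genes that averaged 1 RPKM or more in the fit. limma 3.58.1 (R 4.3.3) with a variance trend gave two-sided p-values, adjusted over all genes by Benjamini-Hochberg, with a threshold of 0.05. The comparisons of a hairpin with the control used 4 libraries each, and the hairpins in 1 fit of 6. Unless another tool is named, adjusted p-values are limma's. Scripts were tested on simulated data.

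Alternatives were pseudocounts of 0.1 and 1, filters of none and 5 RPKM, quantile normalization, removal of the trend over gene length, robust empirical Bayes, limma-voom on recovered reads with TMM factors, a replicate block, and each library left out. The members, lists and tests were chosen with earlier results of these data known. Members are given with all 6 values where called in any comparison, where both libraries of a hairpin lay outside both controls by at least 0.5 on the log2 scale, or where they are central regulators. Of each further list, up to 4 genes called in any comparison are named, ranked by the smaller p of the 2 comparisons with control. Some genes of the lists and markers are not reported here. Promoters come from RefSeq on GRCh38.p14, not the build of the counts.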

Additional observations from a re-analysis of the deposited data

Results flagged for a closer look

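The difference between the hairpins passed the test itself (limma, fit of 6 libraries, adjusted p under 0.05) for 16 of the genes followed through the alternatives. Only LPL kept its call in each of 16 settings, and the other 15 lost theirs without shRNA1 A and without shRNA1 B, with adjusted p between 0.0619 and 0.292. Of the sterol genes, SQLE had a log2 fold change of -0.98, FDFT1 -0.80 and TMEM97 -0.60 for shRNA2 over shRNA1. Of the further genes of the pathway, values were lower with shRNA2 for LPL (-1.12), OSBPL5 (-0.95), RNF139 (-0.82), SC5D (-0.78), SORL1 (-0.75), PLTP (-0.70), RABGGTB (-0.64), SCARB1 (-0.61) and ACLY (-0.55). Values were higher with shRNA2 for GPR183 (1.55), CD36 (1.01), NPC2 (0.72) and RNF145 (0.48), a ubiquitin ligase of the endoplasmic reticulum. No group holds enough libraries to test for a single library far from the others.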

How the results depend on the processing

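The main limits are 2 libraries per group and the gap between the 2 control libraries. Members called numbered 2 for shRNA1 against control, 1 for shRNA2 against control and 3 between the hairpins. With a replicate block on the library letter they numbered 7 (4 rose, 3 fell) for shRNA1, 12 (1 rose, 11 fell) for shRNA2 and 7 (0 rose, 7 fell) between the hairpins. Under the same block the calls over all genes numbered 3780 (35.6%) for shRNA1, 4170 (39.1%) for shRNA2 and 2396 (22.5%) between the hairpins. With 31 members tested, the share of members called in either direction was near or below that of all genes. Calls of the further pathway genes numbered 25 of 69 for shRNA1 and 31 of 71 for shRNA2. The block called FDFT1, SQLE and SOAT1 up and EBP and SREBF1 down with shRNA1, and with shRNA2 STARD4 up and ACAT2, FDPS, TM7SF2, LBR, EBP, DHCR7, SREBF1, INSIG1, INSIG2 and NR1H3 down, beside the calls made without it. Between the hairpins it added LSS, SREBF2, INSIG1 and SOAT1. Same-letter libraries deviated together over genes at r = 0.37 for the hairpins, 0.26 for shRNA1 and control and 0.42 for shRNA2 and control, but with 2 letters this does not show that they are pairs. For shRNA1 the member count was 4 with quantile normalization and 1 with no filter, with a filter at 5 RPKM, with robust empirical Bayes or with limma-voom. Removal of the gene length trend gave 3 for shRNA2, and the calls over all genes between the hairpins numbered 1797. In the hairpin libraries alone 11 members were called. With each library left out in turn, the member counts ranged from 0 to 17 for shRNA1, from 2 to 16 for shRNA2 and from 0 to 12 between the hairpins. Calls over all genes ranged from 461 to 4397 for shRNA1, from 823 to 2010 for shRNA2 and from 155 to 1622 between the hairpins, and those of the further pathway genes from 3 to 25 for shRNA1, from 10 to 23 for shRNA2 and from 2 to 21 between the hairpins. For shRNA1 against control, DHCR7 turned to 0.59 (adjusted p = 9.37e-04) without control A and ACAT2 to -0.43 (adjusted p = 0.018) without control B, against -0.67 and 0.47 with the other control left out. These shifts follow from which control library remains. The cause of the others was not tested. Both pseudocounts changed no member count.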

Other observations

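The sterol exporters ABCA1 and ABCG1, both targets of LXR, differed by library letter in each group. ABCA1 stood at 0.573 RPKM in library A and 1.62 RPKM in library B with shRNA2, against 0.499 and 1.65 RPKM for shRNA1 and 0.921 and 2.23 RPKM for the control. The ratio of A over B was 0.35, 0.30 and 0.41 in these groups. For ABCG1, which rests on 4 to 31 reads, the ratio was 0.41 with shRNA2, 0.32 with shRNA1 and 0.40 in the control. The synthesis enzymes differed by letter in the control and not in the hairpin groups, where their median ratio of A over B was 0.995 with shRNA2 and 0.91 with shRNA1. This was seen in the data and not tested, and the labels do not say what the letters stand for.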
